A study of Mus musculus with 2 samples.

Results

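The genes described here are 9 of the 31053 genes measured in B cells sorted from the mouse heart: Xbp1, Prdm1, Mzb1, Sdc1, Derl3, Creld2, Sdf2l1, Hspa5 and Herpud1. They were taken as a list because each is a marker of plasma cells or belongs to the secretory pathway, and the rule for the list used no measured value, though it was written with earlier results of these data known. They were read in droplets of both libraries that held at least 2000 gene UMIs, at most 10% mitochondrial UMIs and a UMI of Cd79a, the signalling partner of the B cell receptor. All 9 genes had UMIs in both libraries. The study sequenced 2 libraries of wild-type C57BL6/J mice, a neonatal one at 2 weeks of age (15 days in its title) from both sexes and an adult one at 8 weeks from males only. Each library pooled the hearts of 6 mice, so no spread between animals can be given, and age, sex and library cannot be told apart. The cells were sorted by flow cytometry as live B cells, both ages were sorted on 1 day, and the labels name no transgene or treatment. A sort for B cells bears on every count of plasma-like cells given here.

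Antibody is folded and assembled in the endoplasmic reticulum (ER), and a B cell that turns into a plasma cell enlarges that compartment to secrete it. Load on the ER is sensed by the unfolded protein response, whose IRE1 branch splices Xbp1 mRNA and whose ATF6 branch acts with it on genes of chaperones and of ER-associated degradation. B1 cells are an innate-like B cell lineage known as a source of natural IgM, and some of them secrete antibody without a full plasma cell phenotype.

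The neonatal library gave 2077 cells and the adult library 3611, with 16403180 and 34623240 UMIs and a median of 6000 and 6131 UMIs per cell. The cells met their label: UMIs of Cd79b were found in 99.5% and 99.4% of them and of Ms4a1 in 97.4% and 95.6%. UMIs of at least 2 marker genes of another cell type were found in 49 neonatal and 64 adult cells, and the summed level of 8 macrophage markers was 94.3 CPM (UMIs per 1000000) in the neonatal and 17.8 CPM in the adult cells. Between the libraries 110 barcodes held at least 500 UMIs in both, and they took in 61 neonatal and 45 adult cells. Results are also given without these cells where they change, except for the wider B1-like class defined below. These cells were deep, at a median of 30537 and 58990 UMIs. The other library held a median of 2.15% and 1.03% as many UMIs under their barcodes. Leaving them out thus also takes out deep cells. Levels are the UMIs of a gene over all UMIs of the cells, in CPM. Since UMIs were counted at the 3′ end, levels are compared between libraries or cells and not between genes. All intervals are exact, at 95%, and cover counting error only, and with 1 library per age no test between animals was possible.

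Derl3, Creld2, Hspa5 and Herpud1 are known targets of the unfolded protein response. The 160 bases just before the RefSeq start (GRCm38.p6) are shown for Derl3 and Herpud1, whose ratios between the ages lay furthest from 0 in either direction among the genes matched (8 of 9), on the strand of the gene, 5′ to 3′.
Derl3, chr10:75893238-75893397, plus strand: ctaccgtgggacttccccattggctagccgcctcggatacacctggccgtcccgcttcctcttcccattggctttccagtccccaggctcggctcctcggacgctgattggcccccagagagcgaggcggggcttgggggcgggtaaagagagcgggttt
Herpud1, chr8:94386269-94386428, plus strand: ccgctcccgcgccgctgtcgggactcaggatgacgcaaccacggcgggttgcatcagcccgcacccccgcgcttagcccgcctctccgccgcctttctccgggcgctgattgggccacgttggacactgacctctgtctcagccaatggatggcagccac

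Of the 9 genes, 2 were at least 1.5-fold higher in adult than in neonatal cells, 1 was lower by that fold and 6 were neither. Sdf2l1 and Derl3 were the higher genes and Herpud1 the lower one. Over the 10703 genes with at least 50 UMIs, 7.82% were higher and 12.2% lower by the same fold. The median log2 ratio of adult over neonatal was 0.16 for the 9 genes and -0.13 for all genes tested. Without the shared barcodes it was 0.42 for the 9 genes, with Derl3 at 2.60, Sdf2l1 at 1.90 and Xbp1 at 0.43. Markers of other cells moved with age as well, since 5 of the 6 macrophage markers tested were lower in the adult cells. Without cells with markers of other cell types, the median of the 9 genes was 0.18, with Derl3 at 1.25, Sdf2l1 at 1.47 and Herpud1 at -0.78.

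**Figure D1:**
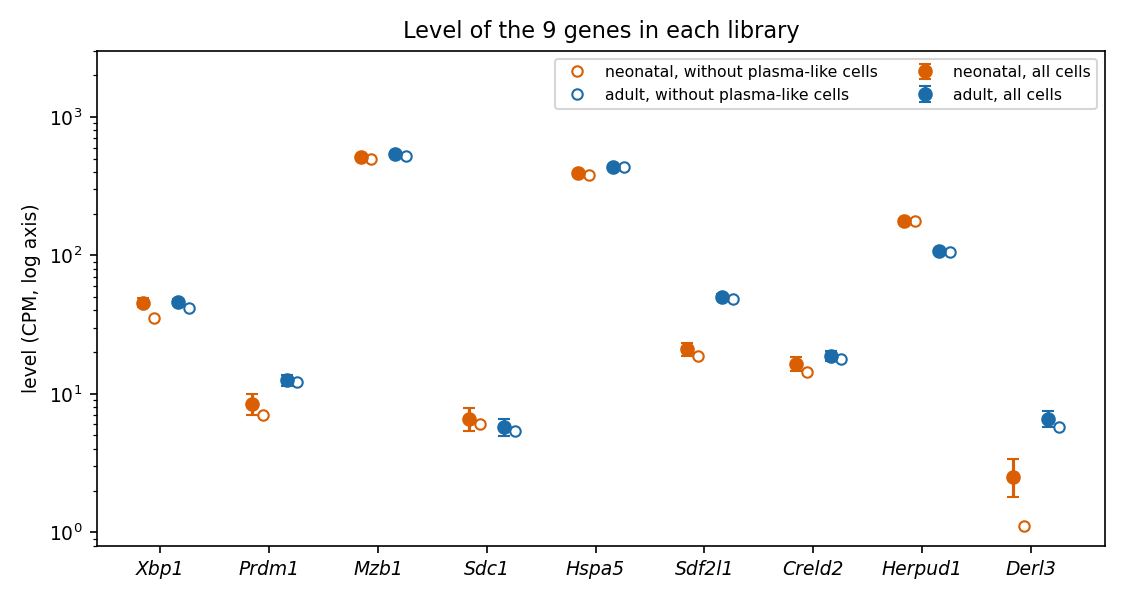
Level of each of the 9 genes (x axis) in CPM on a log axis, with 1 filled point per library for all cells, exact 95% intervals that cover counting error only, and open points for the level without plasma-like cells. Sdf2l1 rose from 21.03 to 49.995 CPM and Herpud1 fell from 177 to 107 CPM, while the points of Xbp1 lie at 45.5 and 45.9 CPM.

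Xbp1 (chr11:5520659-5525893, GRCm38, plus strand) encodes the transcription factor that widens the secretory pathway of plasma cells. Its level was 45.5 CPM in the neonatal and 45.9 CPM in the adult cells, a log2 ratio of 0.01 with an interval of -0.11 to 0.14, and -1.17 at 5% mitochondrial UMIs. These UMIs do not tell its spliced form from its unspliced form. Prdm1 (chr10:44437177-44528501, minus strand) encodes Blimp-1, the repressor that shuts down the B cell programme. It stood at 8.41 CPM in the neonatal and 12.5 CPM in the adult cells, a log2 ratio of 0.57 (0.29 to 0.86) just under the fold. It was 1.15 without the shared barcodes and -1.38 at a limit of 5% mitochondrial UMIs, which left 60 neonatal and 156 adult cells.

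Mzb1 (chr18:35647267-35649367, minus strand) encodes an ER protein of B cells that helps to assemble IgM, and Sdc1 (chr12:8771323-8793715, plus strand) the surface proteoglycan CD138 by which plasma cells are sorted. The level of Mzb1 was 510.4 CPM in the neonatal and 539.6 CPM in the adult cells, a log2 ratio of 0.08 (0.04 to 0.12). Sdc1 stood at 6.58 and 5.72 CPM, a log2 ratio of -0.20 (-0.55 to 0.15).

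Hspa5 (chr2:34771970-34777547, plus strand) encodes BiP, the ER chaperone that holds free immunoglobulin heavy chains. It was at 389.9 CPM in the neonatal and 436.9 CPM in the adult cells, a log2 ratio of 0.16 (0.12 to 0.21), under the fold. Sdf2l1 (chr16:17130138-17132383, minus strand), an ER protein found in BiP chaperone complexes, differed more. Its level was 21.03 CPM in the neonatal and 49.995 CPM in the adult cells, a log2 ratio of 1.25 (1.08 to 1.42), which dropped to 0.22 where cells were held to at most 5% mitochondrial UMIs. Creld2 (chr15:88819646-88826683, plus strand) encodes an ER protein with EGF-like domains that is induced by ER stress. Its levels of 16.4 and 18.7 CPM gave a log2 ratio of 0.19 (-0.01 to 0.40).

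Herpud1 (chr8:94386438-94395377, plus strand) encodes an ER membrane protein of the degradation machinery. It was lower with age, at 177 CPM in the neonatal and 107 CPM in the adult cells, a log2 ratio of -0.73 (-0.80 to -0.66), and at 5% mitochondrial UMIs the ratio was -0.57, just under the fold. Derl3 (chr10:75893413-75895941, plus strand) encodes a derlin, a membrane protein through which misfolded proteins leave the ER. With only 41 neonatal and 227 adult UMIs, it stood at 2.50 and 6.56 CPM, a log2 ratio of 1.39 (0.91 to 1.91), but at 5% mitochondrial UMIs it was -0.82. Plasma-like cells held 49.8% of the neonatal and 33.2% of the adult UMIs of the 9 genes under that limit.

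In near-empty droplets, whose UMIs come from free RNA, 3 of the genes had a higher CPM than in the cells: Herpud1 at 204 and 122 CPM, Sdc1 at 14.3 and 12.1 CPM and Creld2 at 22.3 and 26.8 CPM in the neonatal and the adult library. Mzb1, at 497.3 and 499.2 CPM, and Xbp1, at 41.3 and 35.7 CPM, were close to their levels in the cells without plasma-like cells. A level in CPM alone thus does not set these 5 genes apart from free RNA, and the shares of cells given below are set beside what free RNA would give.

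Other genes of the pathway were counted by the same fold, which 7.82% of all genes passed upward and 12.2% downward with age. Of 18 ER chaperones and folding enzymes, 1 was higher in the adult cells and none lower: Pdia3, a disulfide isomerase, at 119 CPM in the neonatal and 191 CPM in the adult cells. Of 26 genes of ER translocation and signal peptide processing, none passed the fold in either direction. Of 12 other genes of ER-associated degradation, 2 were lower and none higher, and of 14 genes of ER to Golgi transport, 1 was higher, the cargo receptor Lman1 at a log2 ratio of 0.59. None of the 4 ER stress sensors passed the fold. Among 6 tested genes of the ATF4 and CHOP stress response, Ppp1r15a was higher at 0.83, while Atf3 and Ddit3, which encodes CHOP, were lower at -1.09 and -1.31. Of 10 other plasma cell markers, none was higher and 2 were lower, among them Irf4, a factor of B cell activation and of plasma cells, which went from 192 CPM to 68.0 CPM.

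Most cells carried at least 1 of the 9 genes, and 3 of the genes accounted for most of this. After each cell was thinned to 2000 UMIs, UMIs of Mzb1 were found in 57.6% of neonatal and 57.9% of adult cells, of Hspa5 in 50.2% (48.0 to 52.4) and 53.7% (52.1 to 55.3), and of Herpud1 in 29.6% (27.6 to 31.6) and 17.9% (16.7 to 19.2). Free RNA at the composition of near-empty droplets would give a UMI of Mzb1 to 0.922% and 1.49% of cells, of Hspa5 to 0.570% and 0.939% and of Herpud1 to 0.380% and 0.367%. The 14 neonatal droplets without a Cd79a UMI had a median of 5975 UMIs as sequenced. Once thinned, none of them had a Mzb1 or Herpud1 UMI, and 8 had a Hspa5 UMI. With the count of 0 set to 3, a share of up to 21.4% is allowed at that thinned depth, an approximate limit. As sequenced, these droplets held 2 UMIs of Mzb1 and 2 of Herpud1. The adult library had only 4 such droplets. Without thinning, the shares were 87.7% and 85.8% for Mzb1, 83.7% and 86.0% for Hspa5 and 60.6% and 46.7% for Herpud1.

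The other 6 genes were found in few cells at that depth. Sdf2l1 differed in spread as it did in level, with UMIs in 2.84% (2.17 to 3.65) of neonatal and 6.81% (6.01 to 7.68) of adult thinned cells. Xbp1 was found in 7.22% (6.15 to 8.42) and 7.98% (7.11 to 8.91), and Prdm1 in 1.16% (0.742 to 1.71) and 1.33% (0.982 to 1.76). Derl3 was in 2 neonatal and 25 adult cells. Sdc1 was found in 1.40% and 1.47% and Creld2 in 2.94% and 3.21%, where free RNA would give 0.0267% and 0.0362% for Sdc1 and 0.0415% and 0.0804% for Creld2. The fewest cells that held 50% of the UMIs of a gene were 15.3% and 12.4% of cells for Mzb1 and 15.8% and 13.8% for Hspa5. For Prdm1 they were 0.578% and 1.495%, and for Derl3 in the neonatal library 2 cells, 0.0963%. Such a number cannot exceed the UMIs it counts, and neonatal Prdm1 and Derl3 had only 138 and 41 UMIs, against 8373 for Mzb1. It therefore does not set the spread of a gene over cells apart from its level.

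Several of the genes together were about as frequent at both ages. At 2000 UMIs, at least 3 of the 9 were found in 284 neonatal cells, 13.7% (12.2 to 15.2), and in 496 adult cells, 13.7% (12.6 to 14.9). None of the 9 was found in 11.9% of neonatal and 12.8% of adult cells, and at least 4 in 1.78% and 2.30%. Only 5 neonatal and 7 adult cells held 5 or more, and 3 adult cells held 6 or more. Leaving out the plasma-like cells described next, the shares with at least 3 were 13.6% and 13.6%, where the single shares multiplied out to 14.0% and 13.0%. For at least 4 genes they were 1.69% against 1.54% in the neonatal and 2.19% against 1.64% in the adult library. The genes were thus found together about as often as their separate shares gave, apart from an excess of cells with 4 genes in the adult library, where the interval of the share (1.74 to 2.72) lay above the product.

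Across cells, the levels of the genes barely went together. Over the 36 pairs of genes, Pearson's r lay between -0.05 and 0.11 in 2075 neonatal and between -0.03 and 0.10 in 3607 adult cells, all thinned and without plasma-like cells, and no pair passed 0.2. The pair with the highest r in both libraries was Derl3 with Sdf2l1, found together in 1 neonatal and 8 adult cells. The 10 genes most like the summed list, of 6554 ranked by the lower r of the libraries, were Calr, Hsp90b1, Ighm, Canx, Iglc1, Pdia4, Erh, BC031181, Gadd45b and Oaz1, at r of 0.04 to 0.11. Calr, Hsp90b1, Canx and Pdia4 encode ER chaperones or folding enzymes, and Ighm and Iglc1 immunoglobulin chains. These values are descriptions over cells of 1 library that share their depth.

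Plasma-like cells were defined without the 9 genes, as cells with a UMI of Jchain, the joining chain of secreted IgM and IgA, and at least 25% of UMIs from immunoglobulin genes. The neonatal library held 2 and the adult library 4, which were 0.0963% and 0.111% of cells. All were deep, the neonatal ones at 45515 and 38880 UMIs and the adult ones at 24596 to 27230. Immunoglobulin took 27.8% and 27.1% of their UMIs at the neonatal and 57.9%, 47.2%, 46.0% and 44.4% at the adult age, against a median of 1.76% and 1.49% over all cells. The class did not turn on a crowded cut, as the nearest cells below it were 3 adult ones at 15.6%, 10.9% and 9.06% with 47, 267 and 169 Jchain UMIs. All 6 barcodes also had UMIs in the other library, 1008 and 759 for the neonatal cells and 303 to 338 for the adult cells, between 1.23% and 2.21% of the UMIs of the cell. Both neonatal barcodes counted as shared, so without shared barcodes the neonatal library held no plasma-like cell, while the 4 adult cells stayed. Pax5, a defining gene of B cells, was at 0 UMIs in all 6, and Tnfrsf17, the plasma cell receptor BCMA, was found in 5. Of 10 plasma cell markers outside the list, 8 were higher and 1 lower in the neonatal and 7 higher and 2 lower in the adult plasma-like cells. Over all genes tested, 18.2% and 11.6% were higher and 26.1% and 30.2% lower. Jchain is among the higher markers at both ages, but the rule itself selects for it. Irf4 was a lower one at both ages, at 59.2 against 193 CPM and at 38.9 against 68.0 CPM, from 5 and 4 UMIs. Its adult log2 ratio of -0.81 had an interval across 0 (-2.68 to 0.55). Pou2af1, a B cell coactivator, was the other lower gene in the adult cells. Immunoglobulin UMIs are part of the total here, which lowers the CPM of other genes in plasma-like cells, more in the adult ones.

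**Figure D2:**
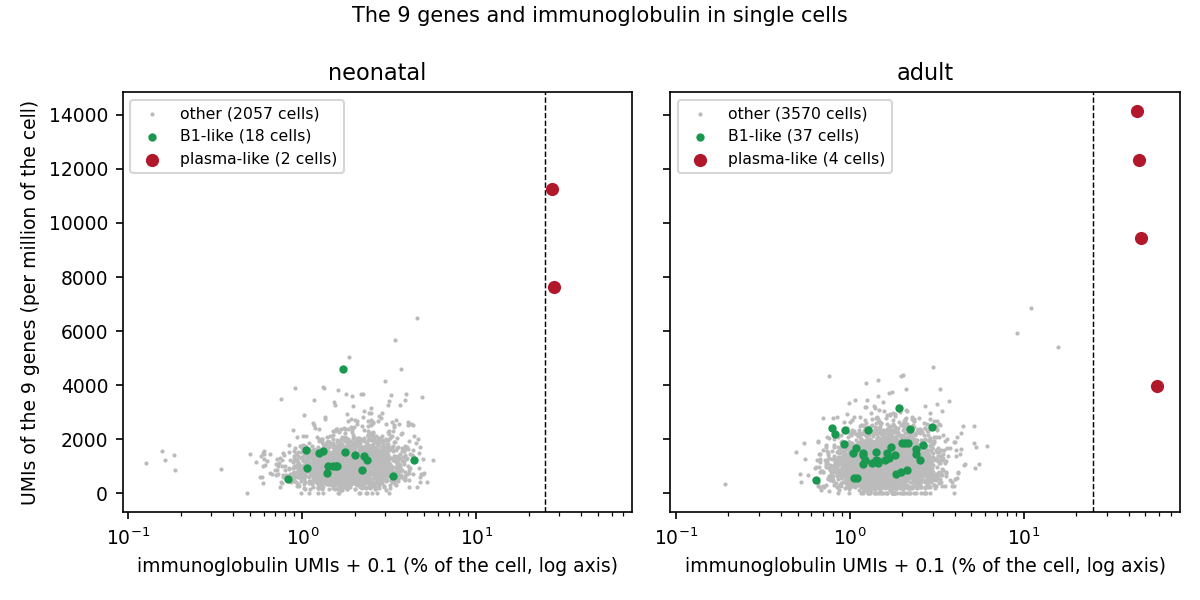
Each point is 1 cell, with the percent of its UMIs from immunoglobulin genes plus 0.1 on a log x axis and the UMIs of the 9 genes per 1000000 of its UMIs on the y axis, for the neonatal (left) and the adult library (right). The plasma-like cells (red) lie right of the dashed line at 25%, at 7624 and 11240 CPM and at 3970 to 14139 CPM, and the 18 and 37 B1-like cells (green) lie among the other cells.

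All 9 genes were found in 5 of the 6 plasma-like cells, and 8 in the other, an adult cell without a Prdm1 UMI. Xbp1 held 40 and 126 UMIs in the neonatal cells and 36, 41, 15 and 53 in the adult cells. Mzb1 held 123 and 135 in the former and 12, 90, 191 and 262 in the latter. Both genes were thus present in each cell, while Mzb1 varied widely among the adult ones. Prdm1 held 22 and 2 UMIs in the neonatal and 2, 5, 6 and 0 in the adult cells, so its neonatal level rested on 1 cell. Sdc1, at 4 and 6 and at 2, 1, 3 and 6 UMIs, was found in all. Hspa5 stood at 73 and 121 and at 9, 47, 36 and 25 UMIs, the neonatal cells being higher in UMIs than any adult cell but also deeper. Sdf2l1 held 21 and 17 and then 4, 10, 28 and 16 UMIs, and Creld2 16 and 18 and then 2, 12, 9 and 14, the first adult cell being low in all 3 chaperones and in Mzb1. Herpud1 held 33 and 4 UMIs in the neonatal and 25, 17, 15 and 3 in the adult cells, low in 1 cell of each library. Derl3 held 15 and 8 UMIs in the neonatal cells, 56.1% of its UMIs in that library, and 12, 9, 2 and 6 in the adult cells.

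The share of all UMIs of a plasma-like cell that came from the 9 genes was 7624 and 11240 CPM in the neonatal and 3970, 9432, 12329 and 14139 CPM in the adult cells. Of the UMIs outside immunoglobulin genes, the 9 genes took 1.06% and 1.54% in the neonatal cells. In the adult cells that part was 0.943%, 1.78%, 2.28% and 2.54%. At 2000 UMIs these cells held 4 and 5 of the 9 genes at the neonatal and 5, 6, 6 and 4 at the adult age. Their heavy chain differed too: Ighm was the constant region with most UMIs in 5 cells, and the adult cell without Prdm1 had 3271 UMIs of Ighg2c and 2 of Ighm. Mki67, a gene of dividing cells, held 48 and 12 UMIs in the neonatal and at most 4 in the adult cells, and the summed UMIs of 10 cell cycle genes were 163 and 36 in the neonatal and 3, 0, 18 and 4 in the adult cells. UMIs of at least 2 of these 10 genes were found in both neonatal cells and in adult cells 1 and 3. Both neonatal cells held the same leading variable genes, Ighv5-17 with 20 UMIs each and Igkv8-30 with 32 and 26. Adult cells 2 and 3 also shared their leading heavy chain variable gene, Ighv5-9-1 with 27 and 12 UMIs. Both held Igkv4-57-1, with 20 UMIs as the leading kappa gene of cell 2 and 15 in cell 3, where Igkv10-95 led with 17. Adult cells 1 and 4 also held a second kappa gene, Igkv5-39 at 36 UMIs beside Igkv16-104 at 50, and Igkv4-69 at 21 beside Igkv4-70 at 39. Whether any of these droplets held more than 1 cell was not tested. These features were chosen after their values were seen.

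**Figure D3:**
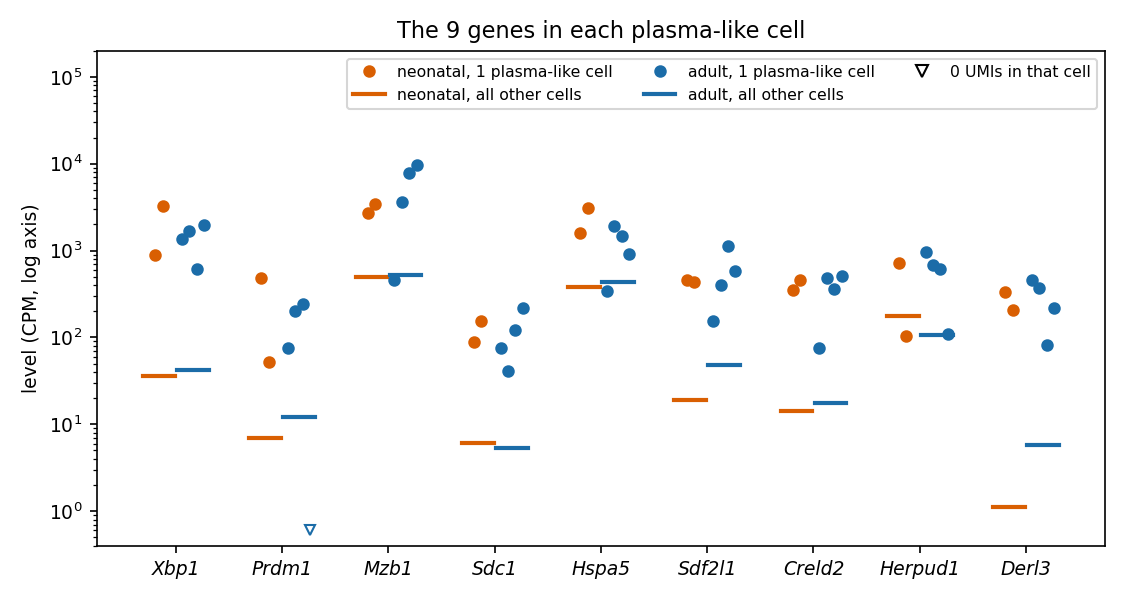
Level of each of the 9 genes in CPM on a log axis in each of the 6 plasma-like cells (2 neonatal, 4 adult), beside a line for the level over all other cells of the same library. An open triangle marks a cell with 0 UMIs. Xbp1 lay at 1967 CPM over the neonatal and 1411 CPM over the adult plasma-like cells, against 35.5 and 41.8 CPM in the other cells.

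Against the other cells of their library, plasma-like cells were higher by at least 1.5-fold in all 8 neonatal genes with enough UMIs to be tested (Derl3 had fewer) and in 9 of 9 adult ones. Over all genes tested, 18.2% and 11.6% were higher and 26.1% and 30.2% lower. These ratios are over all UMIs, immunoglobulin included, which lowers the folds of other genes, more in the adult library. Of the regulators, Xbp1 was higher at 55.3-fold and 33.7-fold and Prdm1 at 40.7-fold and 10.4-fold in the neonatal and the adult library. Sdc1 was 19.7-fold and 21.7-fold higher and Mzb1 6.15-fold and 10.3-fold. Among the chaperones, Creld2 was 28.0-fold and 20.3-fold higher, Sdf2l1 23.9-fold and 11.6-fold, and Hspa5 6.05-fold and 2.62-fold. Derl3 went from 1.10 to 273 CPM in the neonatal and from 5.74 to 282 CPM in the adult library, and Herpud1 was 2.50-fold and 5.53-fold higher. Genes already frequent in the other cells, Mzb1, Hspa5 and Herpud1, had the smaller folds.

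Most other genes of the secretory pathway were higher in the same cells. Over all genes tested, 18.2% and 11.6% were higher and 26.1% and 30.2% lower. Of 18 ER chaperones and folding enzymes, 17 were higher in the neonatal and 16 in the adult plasma-like cells, such as Hsp90b1 (GRP94) at 4384 CPM against 323 and at 3299 CPM against 390.2. Of 26 translocation and signal peptide genes, 21 and 19 were higher and 1 and 2 lower, and of 12 further degradation genes 10 and 9 were higher. Transport from ER to Golgi followed with 11 of 13 and 8 of 14 genes higher and 0 and 2 lower. The ER stress sensors were mixed, with 2 higher and 1 lower of 3 tested in the neonatal and 1 higher and 2 lower of 4 in the adult cells. Of 6 ATF4 and CHOP genes, 0 and 3 were higher and 3 and 2 lower. Of 9 cytosolic heat shock genes, 2 and 0 were higher and 3 and 5 lower. B cell identity genes went the other way, 9 of 10 being lower at each age, as Ms4a1, which encodes CD20, at 59.2 CPM against 1354 and at 68.1 CPM against 1157. Of 10 cycling genes, 9 were higher in the neonatal and 5 in the adult plasma-like cells, and the part of cycling in these ratios of plasma-like cells was not tested.

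These few cells held a small part of the UMIs of the list. They contributed 4.06% of the UMIs of the 9 genes in the neonatal cells, 784 of 19321, and 2.42% in the adult cells, 1026 of 42339. Their part of all UMIs was 0.515% and 0.297%. It was high for Derl3, at 56.1% and 12.8%, and for Xbp1, at 22.3% and 9.13%. For Prdm1 it was 17.4% and 3.002%, for Creld2 12.6% and 5.70%, for Sdf2l1 11.0% and 3.35% and for Sdc1 9.26% and 6.06%. It was 3.08% and 2.97% for Mzb1, 3.03% and 0.773% for Hspa5 and 1.27% and 1.62% for Herpud1, the genes found broadly.

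**Figure D4:**
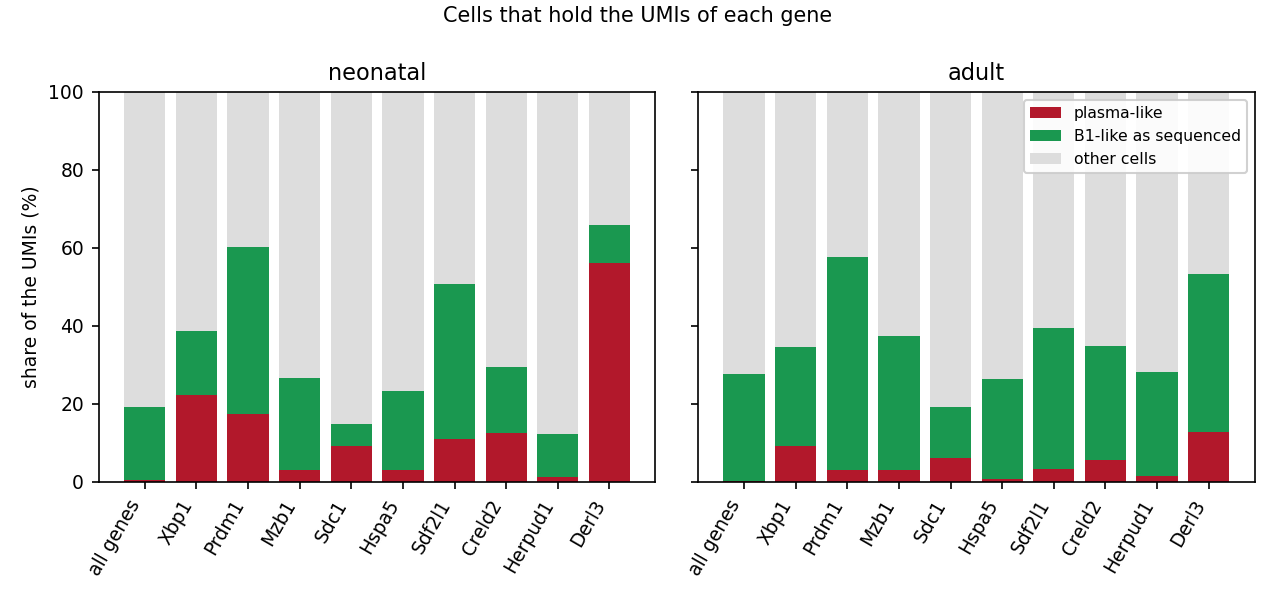
Stacked bars of the percent of the UMIs of all genes and of each of the 9 genes that lay in plasma-like cells, in the wider B1-like class (as sequenced, by all UMIs of a cell and defined below) and in other cells, for the neonatal (left) and the adult library (right). Plasma-like cells held 56.1% of the neonatal UMIs of Derl3 and 1.27% of those of Herpud1.

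Levels were also compared between the ages without plasma-like cells. Derl3 was then at 1.10 CPM in the neonatal and 5.74 CPM in the adult cells, a log2 ratio of 2.38 (1.68 to 3.16), above the 1.39 with them. Prdm1 passed the fold at 0.80 (0.50 to 1.11), from 6.99 to 12.2 CPM, so that 3 of the 9 genes were higher and 1 lower, against 8.02% and 12.2% of all genes tested. Xbp1 stood at 0.24, Sdf2l1 at 1.37 and Herpud1 at -0.74. The median was 0.24, against -0.13 over all genes.

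B1-like cells were defined by 3 genes outside the list: the transcription regulators Bhlhe41 and Zbtb32, known from B1a and activated B cells, and the tetraspanin Cd9, a surface marker of B1 and marginal zone B cells. With UMIs of at least 2 of the 3 at 2000 UMIs, 18 neonatal and 37 adult cells met the rule, and 223 and 338 cells had at least 1, which shows how near the cut many lay. The class was set beside 5 further B1 genes, Cd5, Spn, Itgam, Ctla4 and Plscr1, and 5 of 5 were at least 1.5-fold higher in it in each library. This list was chosen with earlier results of these data known, so it is not an independent check. Over all genes, 14.9% and 12.1% were higher. Intervals lay across 0 for neonatal Cd5 and Itgam, from 3 and 5 UMIs, and for adult Cd5, from 5 UMIs. Without cycling cells, defined below, 5 of 5 passed in the neonatal and 4 of 5 in the adult class, beside 14.2% and 11.1% of all genes. Adult Cd5 was then at 0.24, from 1 UMI. B1-like cells were deeper, with a median of 14401 against 5969 UMIs in the neonatal and 15247 against 6045.5 in the adult library. They were also cycling more often, 16.7% against 7.39% and 29.7% against 9.13%, where cycling means UMIs of at least 2 of 10 cell cycle genes. Cycling was called without thinning, so deeper cells meet that rule more easily. By all UMIs, without thinning, 143 neonatal and 403 adult cells met the same rule, at a median of 17200 and 17721 UMIs, a wider class that favours deep cells. Of these cells, 42 and 32 held shared barcodes, and the wider class was not read without them. Plasma-like cells were left out of both classes, though Cd9 held 0 and 5 UMIs in the neonatal and 1, 4, 5 and 0 in the adult ones. Adult plasma-like cell 2 also held 4 UMIs of Bhlhe41. By all UMIs it thus met the B1-like rule and was left out only as plasma-like. The adult cell at 9.06% immunoglobulin, with 169 Jchain UMIs, held 6, 17 and 8 UMIs of Bhlhe41, Zbtb32 and Cd9. It thus met the rule of the wider class, and the part of such cells in the ratios was not tested.

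In adult B1-like cells, 4 of the 9 genes were at least 1.5-fold higher than in the other cells and none lower, against 12.1% and 16.7% of all genes tested, with a median log2 ratio of 0.45 over the list and -0.05 over all genes. The list median was 0.14 without cells with markers of other cell types, 0.15 for cells with at least 1 of the 3 B1 genes and 0.24 in the wider class. Prdm1 stood at 29.7 CPM against 11.8, a log2 ratio of 1.33 (0.66 to 1.94) from 23 UMIs. Mzb1 stood at 833.5 against 518.0 CPM (0.69, 0.57 to 0.80), Derl3 at 19.4 against 5.42 CPM (1.84, 0.97 to 2.60) from 15 UMIs, and Creld2 at 33.5 against 17.4 CPM (0.95, 0.32 to 1.52). Xbp1 was level at 42.6 against 41.8 CPM, and Hspa5 and Herpud1 lay at log2 ratios of -0.04 and -0.05. Without cycling cells, 3 of 9 were higher and none lower, against 11.1% and 21.2% of all genes. Creld2 was then under the fold, at 0.58 (-0.49 to 1.47) from 10 UMIs. In the wider adult class, 3 of 9 were higher and 1 lower, against 6.6% and 5.61% of all genes: Prdm1 at 1.77 (1.49 to 2.06), Derl3 at 1.20 (0.78 to 1.61) and Sdf2l1 at 0.66 (0.51 to 0.80) higher and Sdc1 at -1.22 (-1.88 to -0.62) lower. Mzb1 was then at 0.54 (0.49 to 0.58), just under the fold, and Creld2 at 0.24.

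In neonatal B1-like cells, 3 of 8 genes tested were higher and 1 lower, against 14.9% and 24.1% of all genes, with a median of 0.49 over the 7 genes with UMIs in both classes and -0.12 over all genes, and of -0.18 without the shared barcodes. Prdm1 was again higher, at 23.4 against 6.63 CPM (1.82, 0.57 to 2.85), from only 8 UMIs, and in the wider class at 19.2 against 4.15 CPM (2.21, 1.66 to 2.77) from 59 UMIs. That wider class, in which 42 of 143 cells held shared barcodes, was not read without them. Sdf2l1 was at 123 against 16.6 CPM (2.89, 2.38 to 3.36), but 37 of its 42 UMIs lay in the 3 cycling cells, and without cycling cells its ratio was 0.49 (-1.15 to 1.73). Without the shared barcodes the ratios were 0.92 for Sdf2l1, 2.99 for Prdm1 and -1.76 for Herpud1. Herpud1 was lower, at 84.9 against 178 CPM (-1.07, -1.65 to -0.54), and at -0.90 (-1.08 to -0.73) in the wider class, while its adult ratios were near 0. Mzb1 was at 661.6 against 493.8 CPM (0.42, 0.23 to 0.61), and Hspa5 and Creld2 at 0.49 and 0.90, the latter with an interval across 0. Sdc1 and Derl3 had 0 UMIs in the 18 cells, which hold too few UMIs to place either gene. In the wider neonatal class, 2 of 8 were higher and 2 lower, against 10.1% and 11.3%, the lower ones being Herpud1 and Sdc1 (-1.83, -3.31 to -0.65).

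**Figure D5:**
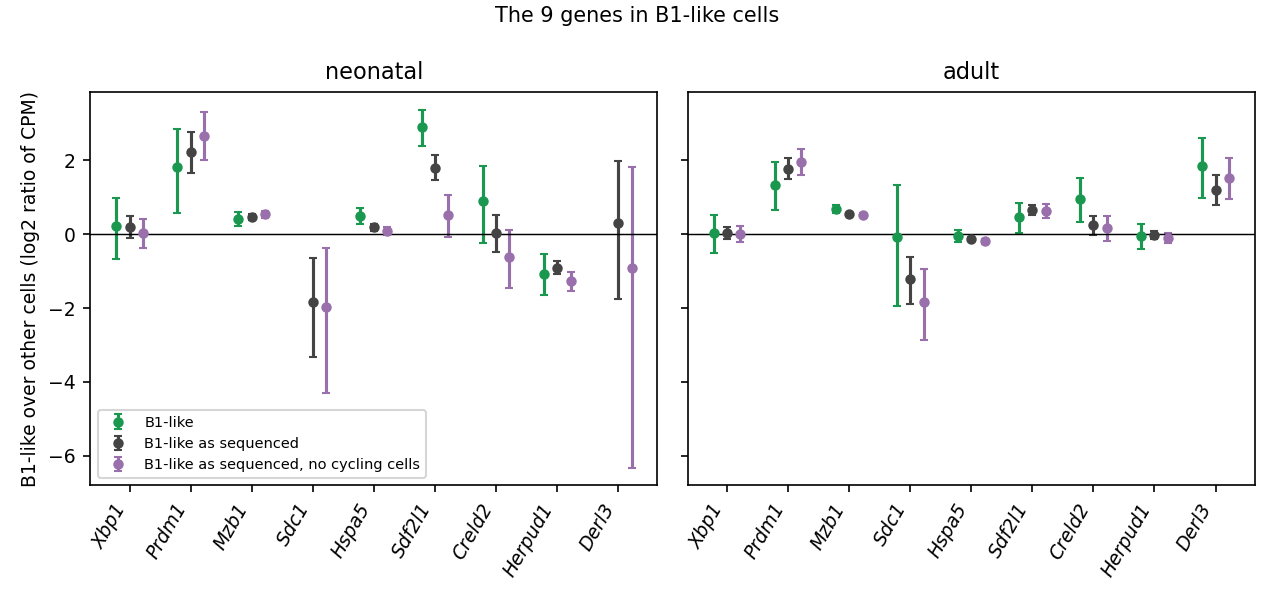
Log2 ratio of CPM in B1-like over other cells (y axis) of each of the 9 genes (x axis) in both libraries, for the class at 2000 UMIs, for the wider class (as sequenced) and for the wider class without cycling cells, with exact 95% intervals that cover counting error only. Prdm1 lies above 1 at every point, and neonatal Sdf2l1 falls from 2.89 to 0.52 across the 3 forms.

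Levels of Prdm1 and Mzb1 were ordered by the number of B1 genes a cell held. For 0, 1 and at least 2 of the 3 genes, Prdm1 stood at 5.09, 16.2 and 23.4 CPM in the neonatal and at 9.96, 22.9 and 29.7 CPM in the adult cells. Mzb1 stood at 479.98, 579 and 661.6 CPM and at 492.6, 674 and 833.5 CPM. Of 18 ER chaperones, 9 were higher and 2 lower in neonatal B1-like cells, and 3 were higher and 1 lower in adult ones, such as Pdia4 at 218 against 107 CPM, where 14.9% and 24.1% and then 12.1% and 16.7% of all genes did so. In the wider class, 6 neonatal and 1 adult chaperone were higher and none lower, beside 10.1% and 6.6% of all genes higher. Of 26 translocation genes, 4 were higher and 3 lower in neonatal B1-like cells and none passed the fold in adult ones. Cycling genes were higher in 9 of 10 cases in each library and class. Without cycling cells, the neonatal chaperones went to 5 higher and 3 lower in B1-like cells, with a median of -0.02 in place of 0.60. Over all genes, 14.2% were then higher and 24.5% lower. In the wider neonatal class 2 were higher and 2 lower, beside 9.02% and 17.2% of all genes. The adult chaperones went to 1 higher and 1 lower, beside 11.1% and 21.2%. In the wider adult class 1 was higher and none lower, beside 5.72% and 7.76%. Macrophage markers summed to 174 CPM in the wider neonatal class against 76.3 CPM in the other cells, and to 18.8 against 17.4 CPM in the adult. Without cells with markers of other cell types, the median of the 9 genes in B1-like cells was 0.57 for neonatal and 0.14 for adult cells, where Sdf2l1 went from 0.45 to 0.14, Prdm1 stood at 1.34 and Mzb1 at 0.74.

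Cells with several genes of the list made up a higher share of the adult, but not of the neonatal, wider B1-like class than of the cells outside the class at 2000 UMIs. At 2000 UMIs, at least 3 of the 9 genes were found in 2 of 18 neonatal B1-like cells, 11.1%, and in 8 of 37 adult ones, 21.6% (9.83 to 38.2), against 13.6% and 13.6% of the other cells. In the wider class, the shares were 12.6% of 143 and 18.1% (14.5 to 22.2) of 403 cells. The interval of the other adult cells, here those outside the class at 2000 UMIs, was 12.5 to 14.7. At both ages these other cells take in most of the wider class, so the shares and intervals do not compare separate groups. At least 2 genes were found in 49.0% of the neonatal and 54.6% (49.6 to 59.5) of the adult wider class, against 49.2% and 47.4% of the same other cells. B1-like cells of the wider class were 6.88% and 11.2% of cells, and held 18.7% and 27.4% of all UMIs and 20.5% and 30.4% of the UMIs of the 9 genes. For Prdm1 that part was 42.8% and 54.7%, and for Xbp1 16.4% and 25.4%. For Sdf2l1 it was 39.7% and 36.2%, and for Derl3 9.76%, from 4 UMIs, and 40.5%. Neonatal cells with shared barcodes, plasma-like ones included, held 60 of the 138 UMIs of Prdm1 and 157 of the 345 of Sdf2l1. In the class at 2000 UMIs, which held 2.08% and 2.24% of all UMIs, the part of Prdm1 was 5.80% and 5.31%. The UMIs of Prdm1 and Mzb1 thus lay in B1-like cells at over their share of all UMIs by both forms of the class at both ages. For Mzb1 the part was 23.5% and 34.4% in the wider class and 2.70% and 3.46% in the class at 2000 UMIs. Hspa5 lay over that share by both forms in the neonatal library only, at 20.2% and 2.83%. The UMIs of Mzb1 and Hspa5 still lay across most B cells and those of Herpud1 across many. UMIs of all 9 genes lay in the plasma-like cells at over the 0.515% and 0.297% of all UMIs held there. The parts of Derl3 and Xbp1 were the highest. In the neonatal library, plasma-like cells were present only with shared barcodes kept. Adult Derl3 also lay over the share of all UMIs held by B1-like cells by both forms, at 6.61% in the class at 2000 UMIs. Sdf2l1 lay over it in the wider class at both ages. Cycling cells, plasma-like ones left out, held 33.0% and 30.2% of the UMIs of Sdf2l1, beside 15.02% and 21.6% of all UMIs. They held 34.8% of those of adult Derl3. With cycling cells left out, the neonatal log2 ratio of Sdf2l1 in the wider class was 0.52 (-0.07 to 1.06), under the fold. The adult ratios were then 0.62 (0.44 to 0.81) for Sdf2l1 and 1.51 (0.96 to 2.06) for Derl3.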

How the data were processed

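Heart B cells of neonatal and adult mice were profiled as 1 library per age on the Chromium 3′ platform. The authors deposited UMI counts, raw and for every droplet and gene, with mm10 named in the submitters' processing notes. The annotation is not given in the sources used here. The antibody rows held 3 and 2 UMIs and were left out.

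Everything after these counts was computed with Python 3.11.15, numpy 2.4.6, scipy 1.17.1, pandas 2.3.3 and matplotlib 3.10.9. Cells were droplets with at least 2000 gene UMIs, at most 10% mitochondrial UMIs and a Cd79a UMI, and doublets were not removed. Levels are CPM over summed counts, and log2 ratios have exact conditional binomial and shares Clopper-Pearson intervals at 95%. A ratio was called at 1.5-fold among genes with at least 50 UMIs, and a count of 0 was set to 3. Shares across cells were taken after thinning each cell once to 2000 UMIs. Near-empty droplets were ranks 45000 to 90000 by UMIs. Gene positions are those of GENCODE M21 (GRCm38), which held 30934 of the 31053 gene IDs, and promoters those of RefSeq. Scripts were tested on simulated data. The 9 genes are named always, and of each other list up to 4 genes with most UMIs and those with the largest ratio either way. Members and lists were chosen with earlier results of these data known. Alternatives changed the depth, mitochondrial and shared-barcode filters, the scaling and the class rules, and those on cycling cells were added after seeing the data. One further marker is not reported here.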

Additional observations from a re-analysis of the deposited data

Results flagged for a closer look

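Hspa5 went opposite ways in the wider B1-like class, at a log2 ratio over other cells of 0.19 at the neonatal and -0.12 at the adult age, and the difference was not tested. Both values lay under the fold. Without cycling cells they were 0.08 (-0.03 to 0.20), an interval across 0, and -0.19 (-0.26 to -0.13).

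Jchain UMIs were also found in droplets outside the cell rule: 10 in the 416 neonatal droplets with over 10% mitochondrial UMIs, 17 in the 505 adult ones, and 33 in the 231 adult droplets with 500 to under 2000 UMIs. Among the last, 2 met the plasma-like rule, and both carried the barcodes of the 2 neonatal plasma-like cells, with 1008 and 759 UMIs.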

How the results depend on the processing

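No paired analysis was possible because each age has 1 library. The median age ratio of the 9 genes, 0.16, was -0.57 at 5% mitochondrial UMIs (60 neonatal and 156 adult cells left), 0.42 without shared barcodes, 0.30 with median of ratios scaling, 0.21 as a mean of per-cell CPM, 0.12 thinned, 0.24 without plasma-like cells, 0.33 without cycling cells and 0.071 with only the 1279 of 2077 neonatal cells that had a Y-linked and no Xist UMI. The share with at least 3 genes, 13.7% at both ages, was 3.30% and 3.09% at a depth of 1000 UMIs, 20% and 16.7% at 5% mitochondrial UMIs, 49.3% and 47.6% for at least 2 genes and 1.78% and 2.30% for at least 4. The neonatal B1-like median, 0.49, was 0.21 at 1000 UMIs, -0.39 at 5% mitochondrial UMIs (1 B1-like cell), -0.18 without shared barcodes, 0.18 with at least 1 B1 gene, 0.20 by all UMIs, -0.10 without cycling cells and 0.033 with both of the last. The adult one, 0.45, was 0.92 at 5% mitochondrial UMIs, 0.14 without cells with markers of other cell types, 0.15 with at least 1 B1 gene, 0.24 by all UMIs and 0.16 by all UMIs without cycling cells. The part of UMIs in plasma-like cells, 4.06% and 2.42%, was 49.8% and 33.2% at 5% mitochondrial UMIs, 0% and 2.65% without shared barcodes, 0% in the neonatal library at an immunoglobulin share of 40%, 2.60% in the adult one at 4000 UMIs and 3.17% at an immunoglobulin share of 10%. Derl3 reversed with age to -0.82 at 5% mitochondrial UMIs, where Prdm1 and Xbp1, under the fold before, stood at -1.38 and -1.17, and neonatal B1-like Creld2 reversed to -0.46 at 1000 UMIs, -0.50 without shared barcodes, -0.81 without cycling cells and -0.62 without them by all UMIs. The causes were not tested. Apart from the 5% limit, age ratios ranged from 1.03 to 1.90 for Sdf2l1, from 1.09 to 2.60 for Derl3, from -0.87 to -0.59 for Herpud1 and from 0.12 to 1.15 for Prdm1. With no minimum of UMIs, 9.73% of 17017 genes were higher and 18.8% lower with age.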
